A study of Mus musculus with 2 samples.

Results

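CD39, CD73 and the receptors and enzymes around them handle nucleotides and adenosine outside the cell, and 10 of their genes were followed among 54532 gene rows. The genes were Nt5e, Entpd1, Adora2a, Ada, Dpp4, P2rx4, P2rx7, P2ry14, Art2b and Slc29a1, each taken as the single row of that symbol, and all 10 were measured. The cells were BDC-2.5 CD4 T cells, whose transgenic receptor was cloned from a T cell that recognises pancreatic beta cells. They had been activated and transferred into NOD.scid mice, hosts without T or B cells. The 2.5HIP-PLG group received 1.75 mg of 2.5HIP-PLG into a vein 1 day after transfer, a poly(lactide-co-glycolide) particle loaded with the hybrid insulin peptide for which this receptor is specific, and the other group was untreated. On day 6 after transfer, CD4-positive cells without the GFP reporter of Foxp3 were sorted from spleen and lymph nodes and pooled over 4 mice per group. Each group is therefore 1 library of pooled mice, called the treated and the untreated library, and no difference below has a replicate check or a p-value.

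In tissues, ATP leaks from stressed or activated cells and acts on P2X channels and P2Y receptors of T cells. CD39 strips ATP and ADP to AMP, and CD73 turns AMP into adenosine, which acts on the A2A receptor to raise cyclic AMP and restrain T cell activation. Extracellular NAD feeds a parallel route in mice, in which the ectoenzyme ART2.2 attaches ADP-ribose to P2X7 and opens it. Together with the folate receptor FR4, CD73 is used as a surface marker of anergic CD4 T cells.

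The treated library held 22580648 counts and the untreated library 26036623. Levels are counts scaled to a library total of 1000000 (CPM), where 1 read was worth 0.0443 CPM in the treated library and 0.0384 CPM in the untreated library. Each ratio is 2.5HIP-PLG over untreated and has an exact 95% interval. It covers counting error alone, since each group has 1 library. No molecular identifiers are described, so copies of the same molecule may count as separate reads, and the intervals may be too narrow even for counting error. Genes are called higher or lower at a difference of at least 1.5-fold whose interval leaves out 1. Of 13902 genes whose counts summed to at least 20, 14.8% were called, 5.15% higher and 9.7% lower. None of 10 abundant CD4 T cell identity genes was called, although their median log2 ratio of 0.37 lay above the -0.01 of all measured genes. Their summed level was 8573 CPM in the treated library and 7363 CPM in the untreated library. The shift was not uniform, since their ratios ran from 0.867 (Thy1) to 1.45 (Cd28). Values scaled by these genes, an alternative added after the data were seen, are therefore given wherever they change the call of one of the 10 genes or of another pathway gene.

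Of the 10 genes, 3 were higher in the treated library (Art2b, Slc29a1 and Entpd1), 1 was lower (P2ry14) and 6 were neither. By the same rule 5.15% of all measured genes were higher and 9.7% lower. The interval lay above 1 for 6 genes, below 1 for 2 (Nt5e and P2ry14) and held 1 for 2 (Ada and P2rx4). Over all measured genes, 24.3% had an interval above 1 and 26.3% one below 1. The median log2 ratio of the 10 genes was 0.18, against -0.01 for all measured genes.

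The reference promoters of the 3 higher genes, the lower gene and Nt5e are shown because these 5 genes carry the differences described here. They are RefSeq windows of the C57BL/6J build GRCm38.p6 from 250 bases before to 50 bases after a transcript start as RefSeq annotates it, the one farthest upstream where a gene has several, and the NOD sequence may differ. Each of these 5 starts lies within 12 bases of a transcript start in GENCODE, but not always at the outer end of the gene as GENCODE draws it. The RefSeq start of Art2b lies 4439 bases downstream of that end, that of Nt5e 412 and that of P2ry14 126. RefSeq windows were matched for 9 of the 10 genes, 21 windows in all, with 8 for Slc29a1, 4 for P2ry14 and 2 for Entpd1. Capitals mark matches on either strand to TGANTCA, a consensus of AP-1, or to TGACG, the core of the cyclic AMP response element. The core ACGTG of hypoxia response elements and the Egr consensus GCGNGGGCG were also searched and had no match in these 5 windows.
Art2b, chr7:101581112-101581411, minus strand: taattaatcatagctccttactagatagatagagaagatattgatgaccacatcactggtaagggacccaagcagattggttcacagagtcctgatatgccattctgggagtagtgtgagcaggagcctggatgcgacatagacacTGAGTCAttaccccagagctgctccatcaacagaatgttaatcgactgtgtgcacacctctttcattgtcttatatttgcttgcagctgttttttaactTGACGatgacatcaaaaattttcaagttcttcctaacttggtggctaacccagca
Slc29a1, chr17:45599569-45599868, minus strand: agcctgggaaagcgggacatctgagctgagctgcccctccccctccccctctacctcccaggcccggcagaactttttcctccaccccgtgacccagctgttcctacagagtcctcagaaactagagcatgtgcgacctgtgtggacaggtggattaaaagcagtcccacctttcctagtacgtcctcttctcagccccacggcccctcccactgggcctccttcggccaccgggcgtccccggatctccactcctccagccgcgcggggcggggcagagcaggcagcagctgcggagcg
Entpd1, chr19:40612116-40612415, plus strand: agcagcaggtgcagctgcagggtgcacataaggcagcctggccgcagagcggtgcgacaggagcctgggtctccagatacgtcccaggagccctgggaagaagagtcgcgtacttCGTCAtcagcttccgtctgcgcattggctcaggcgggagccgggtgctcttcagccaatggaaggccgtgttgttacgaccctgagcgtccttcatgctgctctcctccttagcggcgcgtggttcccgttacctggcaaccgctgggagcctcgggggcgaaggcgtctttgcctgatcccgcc
Nt5e, chr9:88327359-88327658, plus strand: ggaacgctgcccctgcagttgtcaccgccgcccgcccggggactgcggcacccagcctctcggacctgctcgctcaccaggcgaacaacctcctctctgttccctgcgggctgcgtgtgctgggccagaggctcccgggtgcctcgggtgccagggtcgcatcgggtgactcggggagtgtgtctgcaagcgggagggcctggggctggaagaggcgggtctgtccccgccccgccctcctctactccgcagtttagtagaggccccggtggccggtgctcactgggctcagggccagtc
P2ry14, chr3:59153443-59153742, minus strand: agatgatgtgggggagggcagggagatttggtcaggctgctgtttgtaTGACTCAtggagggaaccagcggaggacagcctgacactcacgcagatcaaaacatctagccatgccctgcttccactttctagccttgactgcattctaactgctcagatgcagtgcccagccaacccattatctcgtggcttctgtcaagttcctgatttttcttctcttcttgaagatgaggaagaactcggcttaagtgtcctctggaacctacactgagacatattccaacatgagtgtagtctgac

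The Art2b window held an AP-1 match that begins 104 bases before the RefSeq start and a TGACG match that begins 5 bases before it, and these did not overlap. The P2ry14 window held an AP-1 match that begins 202 bases before the start, and the Entpd1 window a TGACG match that begins 135 bases before it. The windows printed for Slc29a1 and Nt5e held neither. Among the windows not printed, an AP-1 match also stood in the first window of P2rx7, a gene that was not called, and in the second window of P2ry14. Across all 21 windows, 3 of the 9 genes had an AP-1 match, 4 a TGACG match, 3 an Egr match and 1 an ACGTG match. A gene with more windows had more chances to match. Counted by window, 4 of the 21 held an AP-1 match, 5 a TGACG match, 3 an Egr match and 3 an ACGTG match. For Slc29a1, windows farther downstream held a TGACG match, ACGTG matches and an Egr match. Of 32851 windows of the same length, 7.81% held an AP-1 match, 20.8% a TGACG match, 19.6% an ACGTG match and 5.55% an Egr match. The windows also differed in base composition. Those of Nt5e and Entpd1 each had 23 CpG dinucleotides and that of Slc29a1 16, while Art2b had 3 and P2ry14 4, against a median of 7 over all windows. These letters are a description of the windows and show no binding.

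Entpd1 encodes CD39, the first enzyme of the route to adenosine. It had 1947 counts (86.2 CPM, counting interval 82.4 to 90.1) in the treated library and 1453 counts (55.8 CPM, 53.0 to 58.8) in the untreated library. The ratio was 1.55 (1.44 to 1.65), just past the 1.5 rule. Scaled by the CD4 T cell identity genes it was 1.33 (1.24 to 1.42), which ends the call. The gene lies on chromosome 19 from 40612366 to 40741602 (GRCm38). Fewer cells of a type and less RNA per cell cannot be told apart in such bulk libraries.

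Nt5e encodes CD73, the second enzyme, and stood on the other side. It had 528 counts (23.4 CPM, 21.4 to 25.5) in the treated library and 887 counts (34.1 CPM, 31.9 to 36.4) in the untreated library. The level was 1.46-fold lower in the treated library (1.31 to 1.63), just short of the rule. Scaled by the identity genes it was 1.70-fold lower (1.52 to 1.89) and met it. Izumo1r, which encodes the FR4 partner of CD73 as an anergy marker, had 4190 counts in the treated library and 1346 in the untreated library, giving a ratio of 3.59 (3.37 to 3.82). The ratios of the 2 genes of this marker pair therefore lay on opposite sides of 1, with Izumo1r called and Nt5e not called. Nt5e lies on chromosome 9 from 88327197 to 88372092.

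The balance of both ectoenzymes does not depend on how the libraries are scaled. The treated library held 3.69 Entpd1 counts for each Nt5e count, and the untreated library 1.64. The ratio of these ratios was 2.25 (exact conditional interval 1.98 to 2.56). Summed, Entpd1 and Nt5e had 2475 counts in the treated library and 2340 in the untreated library, giving a ratio of 1.22 (1.15 to 1.29), so the sum was not called while the shares within it differed.

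Regulatory T cells and B cells are known to carry CD39, and mouse regulatory T cells also carry CD73. Of 7 regulatory T cell markers, 6 were measured, 4 were higher and 0 lower. Marker counts here and below are to be read beside the 5.15% higher and 9.7% lower of all measured genes. The summed level of the 7 markers was 156 CPM in the treated library and 104 CPM in the untreated library. Among them Foxp3 had 1157 and Il2ra 812 counts in the treated library, against 389 and 1358 counts in the untreated library. The ratio was 3.43 (3.05 to 3.86) for Foxp3 and 0.689 (0.631 to 0.753) for Il2ra, which was not called. The expected counts of Foxp3 were not whole. The part of regulatory T cells in the Entpd1, Nt5e and Izumo1r differences was not tested. Of the B cell markers Cd22 alone was measured and it was called higher, with 389 counts in the treated library and 228 in the untreated library (ratio 1.97, 1.67 to 2.33). Ms4a1 had 0 counts in both libraries. The part of the B cell markers in the Entpd1 difference was not tested either.

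**Figure D1:**
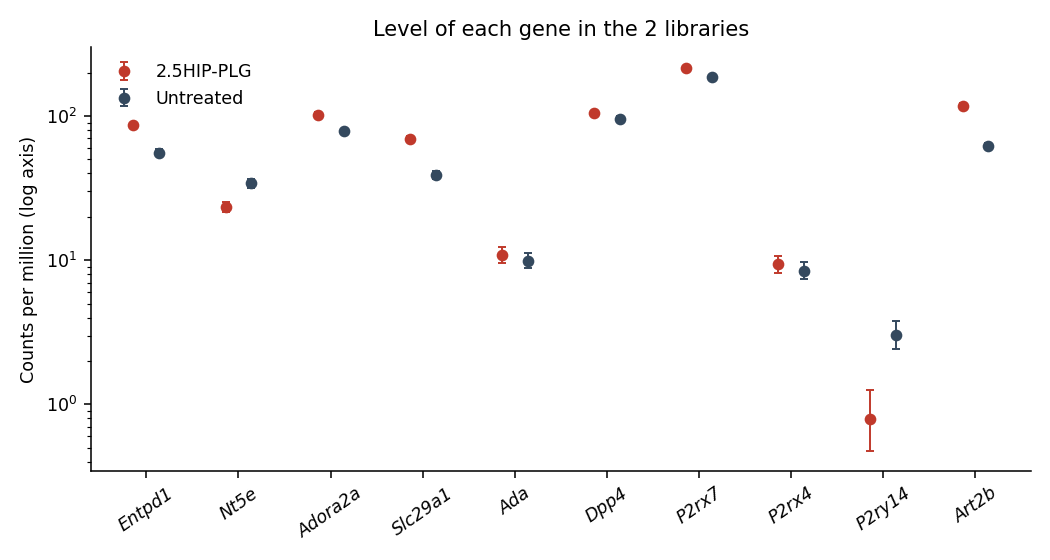
Level of each of the 10 genes in CPM (log axis), with the treated library (red) to the left of the untreated library (dark blue). Points are single libraries and bars are exact Poisson 95% intervals for counting error; P2rx7 was the most abundant by CPM, at 214 in the treated library and 186 in the untreated library, and P2ry14 the least, at 0.797 and 3.03.

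Adora2a encodes the A2A receptor, through which adenosine raises cyclic AMP. It had 2297 counts (102 CPM, 97.6 to 106) in the treated library and 2037 counts (78.2 CPM, 74.9 to 81.7) in the untreated library, giving a ratio of 1.3002 (1.22 to 1.38) that did not reach the rule. With identity gene scaling the ratio was 1.12 (1.05 to 1.19). It was the single measured adenosine receptor. Adora1 had 0 counts in both libraries, Adora2b had 1 in the treated library and 0 in the untreated library, and Adora3 had 0 and 2 in the same libraries. In the treated library there were 4.35 Adora2a counts for each Nt5e count, and 2.30 in the untreated library, which gives a ratio of ratios of 1.89 (1.67 to 2.15).

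Slc29a1 encodes ENT1, a carrier that moves adenosine across the plasma membrane along its gradient. It had 1569 counts (69.5 CPM, 66.1 to 73.0) in the treated library and 1019 counts (39.1 CPM, 36.8 to 41.6) in the untreated library. The ratio was 1.78 (1.64 to 1.92), and 1.52 (1.41 to 1.65) with identity gene scaling. Its expected counts were not whole, and 275 bases of its exons are shared with the antisense gene Gm17080, which had 5 counts in each library. The gene lies on chromosome 17 from 45585200 to 45599606, minus strand.

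Ada and Dpp4 were not called. Ada encodes adenosine deaminase, which turns adenosine into inosine. It had 245 counts (10.8 CPM, 9.53 to 12.3) in the treated library and 259 counts (9.95 CPM, 8.77 to 11.2) in the untreated library, giving a ratio of 1.09 (0.912 to 1.304). Dpp4 encodes CD26, a peptidase that in humans anchors adenosine deaminase at the T cell surface. It had 2357 counts (104 CPM, 100.2 to 109) in the treated library and 2485 counts (95.4 CPM, 91.7 to 99.3) in the untreated library, giving a ratio of 1.09 (1.03 to 1.16). Within the libraries, Slc29a1 outnumbered Ada by 6.40 counts to 1 in the treated library and by 3.93 to 1 in the untreated library, giving a ratio of ratios of 1.63 (1.34 to 1.98).

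P2rx7 encodes P2X7, an ATP-gated channel that triggers shedding of surface proteins and death of T cells at high ATP. It had 4835 counts (214 CPM, 208 to 220.2) in the treated library and 4837 counts (186 CPM, 181 to 191) in the untreated library, giving a ratio of 1.15 (1.11 to 1.20). P2rx4 encodes P2X4, another ATP-gated channel, and starts 16.1 kb after the end of P2rx7 on chromosome 5. It had 211 counts (9.34 CPM, 8.13 to 10.7) in the treated library and 220 counts (8.45 CPM, 7.37 to 9.64) in the untreated library, giving a ratio of 1.11 (0.911 to 1.34). The proportion of these neighbours was close in both libraries. There were 22.9 P2rx7 counts for each P2rx4 count in the treated library and 22.0 in the untreated library, giving a ratio of ratios of 1.04 (0.855 to 1.27). With identity gene scaling the ratio of P2rx7 was 0.990 (0.951 to 1.03).

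Art2b encodes ART2.2, the ADP-ribosyltransferase that modifies P2X7 when NAD is present, and had the highest ratio of the 10 genes. It had 2668 counts (118 CPM, 114 to 123) in the treated library and 1610 counts (61.8 CPM, 58.9 to 64.9) in the untreated library. The ratio was 1.91 (1.80 to 2.03), at percentile 96.6 of all measured genes by log2 ratio, and 1.64 (1.54 to 1.75) with identity gene scaling. The treated library held 0.552 Art2b counts for each P2rx7 count and the untreated library 0.333, a ratio of ratios of 1.66 (1.54 to 1.79). The gene lies on chromosome 7 from 101576970 to 101585600, minus strand.

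A near copy bears on this value. Art2a-ps, a polymorphic pseudogene in the annotation, lies on the same chromosome from 101552453 to 101560865 and shares 5.02% of the distinct 50-base stretches of Art2b transcripts, which is 11.8% of its own. The expected counts of Art2b and Art2a-ps were 2668.15 and 255.85 in the treated library and 1610.11 and 204.89 in the untreated library. In both libraries the fractional parts add up to a whole count, as they do where reads are divided between 2 genes. Art2a-ps had 256 counts in the treated library and 205 in the untreated library, giving a ratio of 1.44 (1.19 to 1.74). Summed, both genes had 2924 counts in the treated library and 1815 in the untreated library, and the ratio of the sum was 1.86 (1.75 to 1.97).

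P2ry14 encodes a receptor for UDP-glucose and related UDP-sugars and was scarce in both libraries. It had 18 counts (0.797 CPM, 0.472 to 1.26) in the treated library and 79 counts (3.03 CPM, 2.40 to 3.78) in the untreated library. The level was 3.81-fold lower in the treated library (2.26 to 6.75), at percentile 1.73 of all measured genes. P2ry14 lies on chromosome 3 from 59113855 to 59153618, minus strand, inside Med12l (59005825 to 59318682), which runs on the opposite strand and shares no exon bases with it. Med12l, which encodes a subunit of the Mediator complex, had 39 counts in the treated library and 142 in the untreated library, 3.16-fold lower (2.20 to 4.62). It was looked up after the P2ry14 values were seen. Strand use in counting is not stated, so unspliced reads from introns of one gene could have been counted for exons of the other. Reads from exons of the 2 genes differ in position. P2ry12 and P2ry13, receptors for ADP that lie inside Med12l too, had 2 and 1 counts in the treated library and 11 and 5 in the untreated library, below the minimum for a call. Dendritic cell markers also had a lower sum, 57.0 CPM in the treated library and 79.8 CPM in the untreated library, with 1 of 5 measured genes lower and 0 higher, and their part in the P2ry14 difference was not tested.

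**Figure D2:**
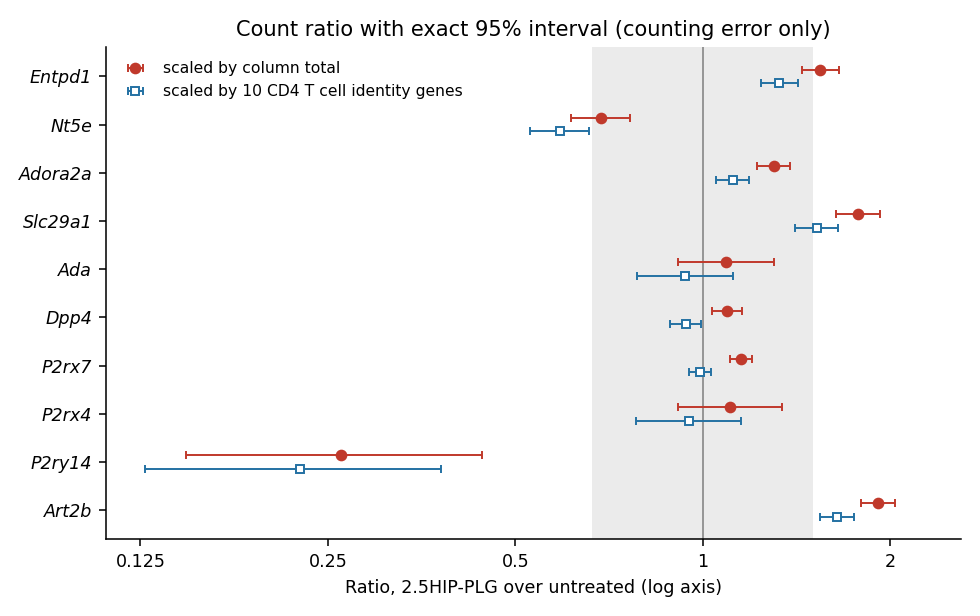
Ratio of each of the 10 genes, 2.5HIP-PLG over untreated (log axis), with exact 95% intervals for counting error; filled circles are scaled by library total, open squares by the 10 CD4 T cell identity genes, and the grey band spans ratios within 1.5-fold. Art2b and Slc29a1 lie right of the band and P2ry14 left of it under both scalings, whereas Entpd1 and Nt5e change sides of its edges.

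Per length of exon the order of levels differed from that of CPM. In CPM per kilobase of exon, the treated library was led by Art2b (41.8), P2rx7 (35.9) and Adora2a (33.2), and the untreated library by P2rx7 (31.1), Adora2a (25.6) and Art2b (21.9). Art2b thus stood ahead of P2rx7 and Adora2a in the treated library and behind them in the untreated one. Slc29a1 (17.3), Dpp4 (16.5) and Entpd1 (15.5) followed in the treated library, and Dpp4 (15.1), Entpd1 (10.001) and Slc29a1 (9.76) in the untreated library. The counting intervals of Slc29a1 and Dpp4 overlapped in the treated library, as did those of Dpp4 and Entpd1, and in the untreated library those of Entpd1 and Slc29a1 overlapped. Ada (5.42 in the treated library and 4.97 in the untreated library), Nt5e (2.72 and 3.96), P2rx4 (1.33 and 1.20) and P2ry14 (0.0721 and 0.274) came last in both. Which isoforms the cells use is not given by gene counts. Per kilobase of the longest principal transcript, Art2b led both libraries, with 136 in the treated library and 71.1 in the untreated library.

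**Figure D3:**
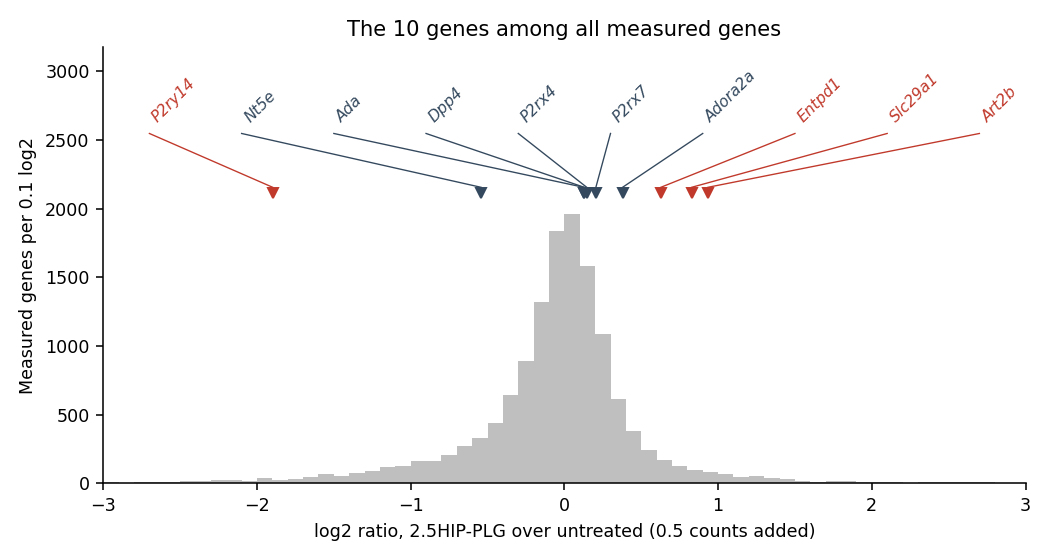
Number of measured genes per 0.1 of log2 ratio, 2.5HIP-PLG over untreated (grey bars, genes between -3 and 3 shown), with triangles at the values of the 10 genes, red where called. Art2b (0.93), Slc29a1 (0.83) and Entpd1 (0.63) stand right of the peak and P2ry14 (-1.90) far left of it, while Ada, Dpp4, P2rx4 and P2rx7 lie near it between 0.13 and 0.20.

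The other genes of the pathway were described by 11 lists of the same functions, of which 80 genes were not among the 10. Of these, 50 were measured, 4 were higher (Adk, Enpp1, Slc29a4 and Cd38), 7 were lower and 39 neither. Over all measured genes 5.15% were higher and 9.7% lower, and the list counts below are to be read beside these shares. The median log2 ratio of the 50 genes was 0.00. The lists also hold genes of the 10, so list counts and medians below repeat in part values given above.

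On the extracellular side, 2 of 3 measured ectonucleotidases were higher. Beside Entpd1 this was Enpp1, which cleaves ATP directly to AMP, with 711 counts in the treated library and 343 in the untreated library, giving a ratio of 2.39 (2.098 to 2.73). The median of this list on the log2 scale was 0.63, which is the value of Entpd1 itself. Entpd3, Entpd8 and Enpp3 had 0 counts in both libraries. Of the NAD ectoenzymes, 2 of 3 measured were higher, Art2b among them, and 0 lower. The median of 0.93 is the value of Art2b itself. Cd38, which consumes NAD, had 1152 counts in the treated library and 621 in the untreated library, giving a ratio of 2.14 (1.94 to 2.36), so that both Cd38 and Art2b, which use the same substrate, were higher. Art1 had 0 counts in both libraries. Of the intracellular nucleoside diphosphatases, 1 of 4 was lower and 0 higher (median -0.25), namely Entpd5, an enzyme of the endoplasmic reticulum, with 1323 counts in the treated library and 2418 in the untreated library (1.59-fold lower, 1.48 to 1.70).

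Adenosine uptake and salvage held the highest ratio among measured genes of the 11 pathway lists, that of Adk. Adk, the kinase that turns adenosine back into AMP inside the cell, had 1184 counts in the treated library and 442 in the untreated library, giving a ratio of 3.09 (2.77 to 3.45), while Ada, the competing enzyme, was not called. Among 12 measured genes of purine nucleoside metabolism, Adk was the 1 higher gene and Ampd3, an AMP deaminase, the 1 lower (121 and 240 counts; 1.72-fold lower, 1.38 to 2.16), with a median of 0.10. The most abundant of them, the nucleotidase gene Nt5c, had a ratio of 0.981 (0.925 to 1.04). Of 5 measured nucleoside transporters, 2 were higher and 0 lower (median 0.31). Slc29a4, a carrier of monoamines and adenosine, had 192 counts in the treated library and 99 in the untreated library, giving a ratio of 2.24 (1.75 to 2.88), and the most abundant, the concentrative carrier gene Slc28a2, had a ratio of 1.24 (1.16 to 1.33).

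On the receptor and release side the called genes were lower. Of 7 P2Y receptors only P2ry14 and P2ry1 were measured, and both were lower. P2ry1, a receptor for ADP, had 33 counts in the treated library and 68 in the untreated library (1.79-fold lower, 1.16 to 2.80), and RSEM gave it fractional counts. P2ry4 had 0 counts in both. Of 7 P2X receptors, P2rx7 and P2rx4 alone were measured, and P2rx6 had 0 counts in both libraries. Among 3 measured genes of ATP release, Slc17a9, which loads ATP into vesicles, had 353 counts in the treated library and 809 in the untreated library (1.99-fold lower, 1.75 to 2.26). The channel genes Panx1 (ratio 1.07, 1.01 to 1.14) and Lrrc8a (1.13, 1.06 to 1.20) were not called, and the list's median was 0.10.

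**Figure D4:**
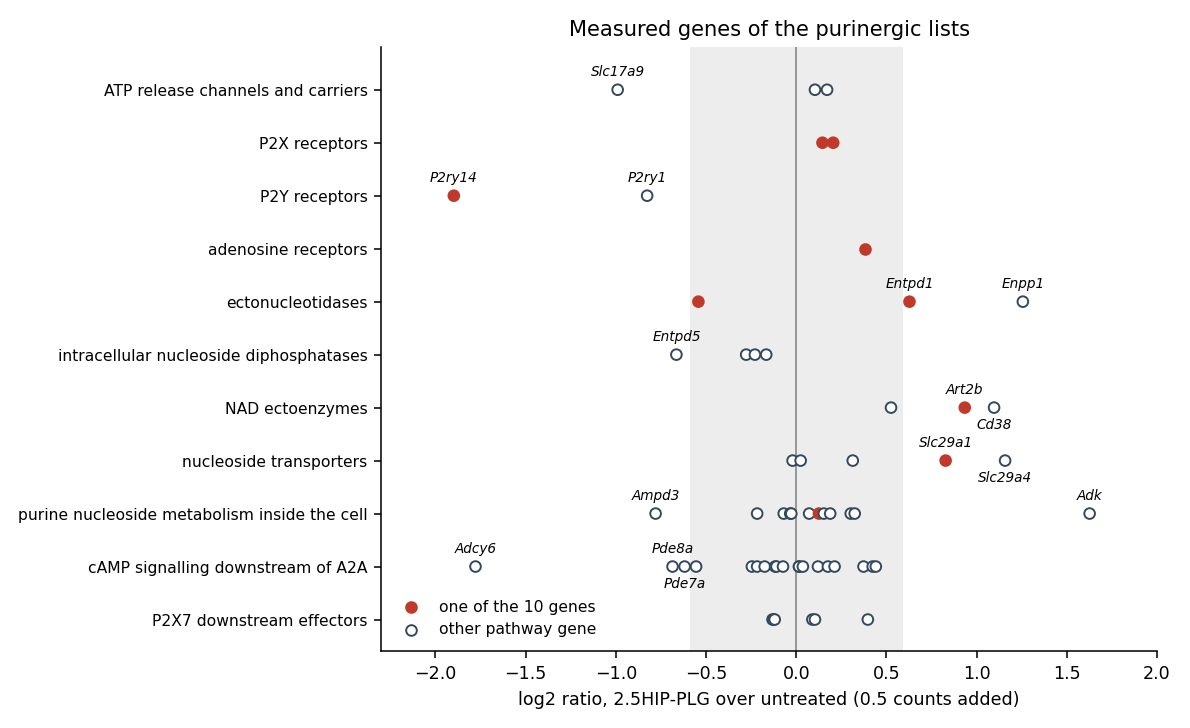
Log2 ratio, 2.5HIP-PLG over untreated, of each measured gene in the 11 pathway lists, with genes among the 10 filled in red and others open; the grey band spans ratios within 1.5-fold and called genes are named. Called genes lie right of the band among ectonucleotidases, NAD ectoenzymes and nucleoside transporters, left of it among P2Y receptors, ATP release, intracellular diphosphatase and cyclic AMP genes, and on both sides for purine metabolism (Adk and Ampd3).

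Downstream of the A2A receptor, 0 of 19 measured genes of cyclic AMP signalling were higher and 3 were lower, with a median of -0.07. The shares over all measured genes were 5.15% higher and 9.7% lower. Adcy6, an adenylyl cyclase, had 119 counts in the treated library and 472 in the untreated library (3.44-fold lower, 2.81 to 4.24), and its expected counts were not whole. Adcy7, the most abundant cyclase of the list, had 12264 counts in the treated library and 13786 in the untreated library, giving a ratio of 1.03 (1.001 to 1.05). The other lower genes encode enzymes that break cyclic AMP down. Pde7a had 2879 counts in the treated library and 5098 in the untreated library (1.54-fold lower, 1.47 to 1.61). Pde8a had 285 and 529 counts in the same libraries (1.61-fold lower, 1.39 to 1.87). Pde3b, another such enzyme, had 1299 counts in the treated library and 2201 in the untreated library and was not called (1.47-fold lower, 1.37 to 1.57), but with identity gene scaling it was 1.71-fold lower (1.60 to 1.83) and met the rule, which makes 4 lower genes of the 19. Gnas, which encodes the stimulatory G protein subunit and was the most abundant, had a ratio of 0.927 (0.907 to 0.948). Downstream of P2X7, 0 of 6 measured genes were called (median -0.02). Adam10, a protease that sheds surface proteins, was the most abundant, with a ratio of 1.32 (1.26 to 1.37).

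**Figure D5:**
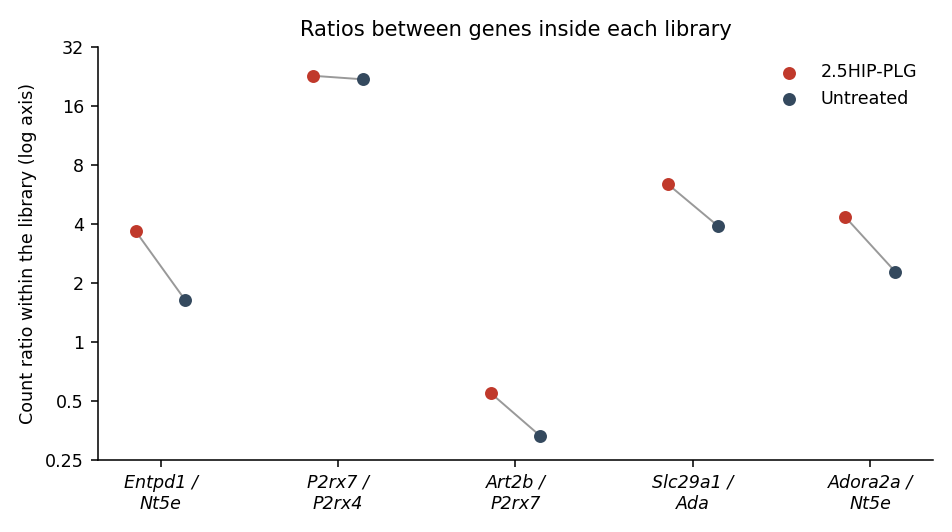
Count of the first gene divided by that of the second within each library (log axis), 2.5HIP-PLG left in red and untreated right in dark blue, a quantity that library scaling does not change. Entpd1 to Nt5e was 3.69 in the treated library and 1.64 in the untreated library, and P2rx7 to P2rx4 was 22.9 and 22.0.

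The remaining marker lists bear on what else the sorted cells may have held. Summed levels were 14.1 CPM for neutrophil genes, 17.0 for mast cell and basophil genes, 22.1 for macrophage and monocyte genes and 17.6 for B cell genes in the treated library, against 3.92, 3.76, 20.4 and 9.60 CPM in the untreated library. They were 24.7 CPM for NK cell, 13.5 for CD8 T cell, 42.1 for erythroid, 4.07 for stromal and 1.55 for platelet genes in the treated library, and 31.2, 10.8, 43.6, 2.34 and 1.42 CPM in the untreated library. Mpo made up most of the neutrophil sum, with 237 of 318 counts in the treated library and 57 of 102 in the untreated library. Elane was called higher too, while the intervals of S100a8, S100a9, Ly6g and Ngp held 1. Sums also hide genes that differed in opposite directions. Of 5 measured NK cell genes 2 were higher and 2 lower, among them Klra8 with 80 counts in the treated library and 7 in the untreated library, and Klrb1b with 160 and 375 in the same libraries. Of 5 measured macrophage and monocyte genes 2 were called higher, namely Csf1r (ratio 2.14, 1.31 to 3.55) and Lyz2 (2.48, 1.74 to 3.58), and 0 lower. Itgam, the most abundant of them, had 219 counts in the treated library and 325 in the untreated library (ratio 0.777, 0.652 to 0.925). It was not called, though its interval lay below 1. The intervals of Cd68 and Adgre1 held 1. For CD8 T cells, Cd8a had 0 counts in the treated library and 9 in the untreated library, while Cd8b1 had 304 and 272 counts in the same libraries (ratio 1.29, 1.09 to 1.52) and was not called. The part of these cells in the differences above was not tested.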

How the data were processed

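RNA sequencing of 1 library per group was compared. Per the labels' protocols, RNeasy Plus Mini columns gave the RNA and NuGen's Universal Plus mRNA kit the libraries. Groups follow the treatment label, since both samples carry the protocol text of the injection. Per the submitters' processing notes, the authors used STAR and RSEM 1.3.1 with build GRCm38. Annotation, strand use, filters and the version of STAR were not stated in these sources. Their deposited table holds expected counts, estimates that split a read among genes and were left unscaled between libraries. In the treated library 11.1% of rows were not whole, and in the untreated library 11.8%.

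Counts were rounded and divided by the library total. Ratios and exact conditional binomial (Clopper-Pearson) intervals were computed with Python 3.11.15 and scipy 1.17.1. The code was run on simulated Poisson counts, which hold counting error alone. That run cannot show whether the intervals suit these expected counts. Ratios of ratios have exact conditional odds ratio intervals. A log2 ratio was taken with 0.5 counts added. Genes with a count sum under 20 got no call. Exon lengths and positions come from GENCODE M21 on GRCm38, which held all 10 gene IDs. Length is the union of annotated exons. TMM factors came from edgeR 4.0.16 and size factors from DESeq2 1.42.0 in R 4.3.3, as alternatives only. The 10 genes, the 11 pathway lists, the 12 marker lists, the gene pairs and the call rule were chosen with earlier results of these data known. Named genes are the 10, each other list gene that was called, the most abundant measured gene of each list, and Izumo1r. Panx1, Adcy7, Pde3b, genes at 0 counts, P2ry12, P2ry13, the other adenosine receptors, the marker genes, Med12l and the overlapping genes were named after their values were seen. Art2a was matched to the row Art2a-ps. No genes of like pattern were sought, since 2 libraries give no pattern.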

Additional observations from a re-analysis of the deposited data

How the results depend on the processing

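With 1 library per group no replicate could be left out. No paired analysis was possible because each group has 1 library and the results come from no test. The 10 ratios kept their calls under TMM, upper quartile and DESeq2 scaling, without the 20 most abundant genes in the total, with unrounded counts and with a 99% interval. With a ratio of 2 required, Art2b (1.91), Slc29a1 (1.78) and Entpd1 (1.55) lost their calls, which left 0 of the 10 higher, and 387 of all genes higher and 808 lower. With a count sum of at least 100, P2ry14 was no longer measured, which left 0 of the 10 lower, and 473 of all genes were higher and 748 lower. Scaling by the CD4 T cell identity genes, added after the data were seen, moved the median log2 ratio of all genes to -0.23. Entpd1 (1.33) then lost its call and Nt5e (0.589) gained one, so 2 of the 10 were higher and 2 lower. Of the other pathway genes Pde3b (0.584) gained a call, so 12 rather than 11 were called. Over all genes 434 were then higher and 2253 lower, so 16.2% of calls were higher, against 34.7% with the library total (716 higher and 1348 lower). The uncalled ratios of Ada (0.937), Dpp4 (0.939), P2rx4 (0.9498) and P2rx7 (0.990) moved below 1. This scaling multiplies every ratio by the same factor, so a ratio set against the median of all genes is the same under both. At a ratio of 2, each of the 8 pathway lists with a called gene lost calls, and the other pathway genes kept 5 of 11. Identity gene scaling lowered the medians of all 11 lists by over 0.1 on the log2 scale, and turned those of ATP release (-0.12), P2X receptors (-0.04) and purine metabolism (-0.12) below 0. Low counts limit P2ry14 (18 and 79 counts) and leave 5 of 7 P2X and 5 of 7 P2Y genes unmeasured.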
